A study of Mus musculus with 576 samples.

Results

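The comparison described here sets single cells cultured for 1 day with dexamethasone against cells cultured for the same time without it. Its members are the wells of the 2 day 1 plates that passed the filters on cells, 94 dexamethasone cells and 94 control cells, which makes 188 of the 563 cells kept in the whole series. All cells came from the liver of C57/Bl6J mouse embryos at embryonic day 14.5. Before culture, cells carrying markers of T and B cells (CD3e, CD45R), of myeloid cells (CD11b, Ly-6G, CD16/32), of mature red cells (Ter119), of platelets (CD41) or Sca-1 were depleted, and the remainder was sorted by CD117, CD71 and CD24 to enrich burst forming unit-erythroid (BFU-E) cells. The dexamethasone group was then kept for 24 hours in SFEM2-based medium with 100 nM dexamethasone, and the control group was kept for 24 hours in that medium without it. Both groups carried the same additions, 2 U/mL of erythropoietin, 100 ng/mL of stem cell factor (SCF) and 40 ng/mL of insulin-like growth factor 1 (IGF-1), so neither was free of growth factors. Each group was 1 plate of 96 wells, whether several embryos were pooled is not given in the sources used here, and plate, sequencing and treatment cannot be told apart.

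BFU-E are early committed progenitors of the red cell lineage. They need the receptor of stem cell factor, Kit, and become dependent on erythropoietin as they mature into cells that make globin, heme and the red cell membrane skeleton. Dexamethasone is a synthetic ligand of the glucocorticoid receptor, the product of Nr3c1, which moves to the nucleus when bound and changes transcription of genes near its binding sites or near those of factors it meets there. Glucocorticoids are known to expand cultures of BFU-E and to delay their maturation, and the comparison asks what the transcriptome of the cells looks like on the first day of exposure.

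A kept dexamethasone cell held a median of 1237594 read counts (140752 to 2103215), and a kept control cell held a median of 922603 (208010 to 1719313). The deeper dexamethasone cells had a median of 8923.5 genes with a count, against 8119 in control cells, and 7805 against 7330.5 after each cell was thinned to 300000 counts, which left out 1 dexamethasone and 2 control cells. Mitochondrially encoded genes took a median of 3.93% of counts in dexamethasone cells and 3.91% in control cells. Levels are given as CPM, the counts of a gene summed over a plate's cells and divided by the plate's TMM-scaled library size. Brackets after a level hold its exact 95% Poisson interval and those after a share of cells its exact Clopper-Pearson interval, which cover counting error only, and amplified copies of a molecule are counted again. With 1 plate a side no test was run, and "rose" or "fell" means only that the 2 plates differed at least 2-fold, a log2 ratio of dexamethasone over control of at least 1 in size.

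Most genes sat close together on the 2 plates. Of 9343 genes with a mean of at least 5 CPM and a count in at least 10% of the cells, 153 (1.64%) were at least 2-fold higher with dexamethasone and 256 (2.74%) were at least 2-fold lower, and the median log2 ratio over all of them was -0.04. The share of genes within 2-fold was 95.6% on day 1, against 84.5% on day 2 and 85.1% on day 3 for these same genes. Single cells weighed on some of the calls: 1 cell gave over 25% of the counts of the higher plate for 15 of the 153 higher genes and 56 of the 256 lower ones, against 197 of all 9343.

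**Figure D1:**
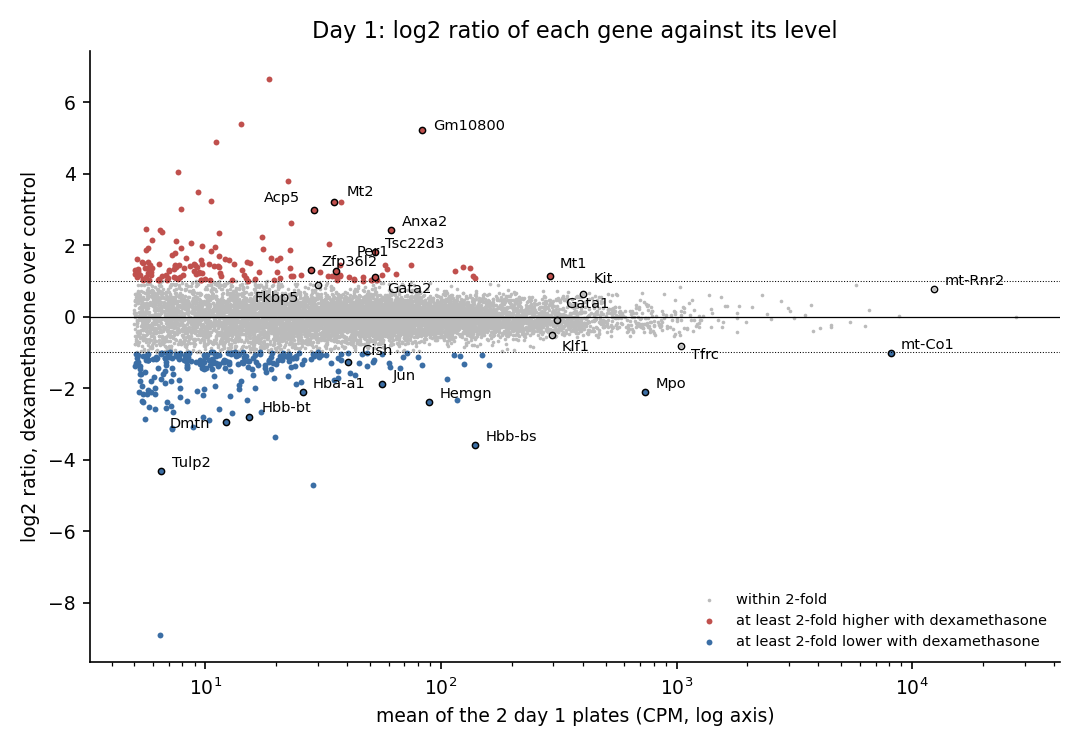
Log2 ratio of dexamethasone over control on day 1 (vertical axis) against the mean level of the 2 day 1 plates in CPM (horizontal log axis) for the 9343 genes with enough counts, each point 1 gene; red points are at least 2-fold higher with dexamethasone, blue points at least 2-fold lower, and dotted lines mark 2-fold. Of the labelled genes, Gm10800, Mt2 and Acp5 lie highest and Tulp2 and Hbb-bs lowest, while Gata1 lies near 0.

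Direct targets of the glucocorticoid receptor known from other cell types leaned upwards. Of 29 listed targets 20 had enough counts, 5 rose, 2 fell and 13 stayed within 2-fold, with a median log2 ratio of 0.71 beside -0.04 for all genes. The 5 that rose were Mt2, Tsc22d3, Per1, Hif3a and Mt1, and 5 of 20 compares with the 1.64% of all genes that rose. The 2 that fell were Irs2 and Anxa1, an adaptor of the insulin receptor and an annexin. The 4 genes Mt2, Tsc22d3, Per1 and Fkbp5 had served in earlier work on these data to choose how the header of the table is read, so they are not independent evidence here. Of the 16 measured targets without them 2 rose, 2 fell and 12 stayed within 2-fold, with a median log2 ratio of 0.32.

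Tsc22d3 encodes GILZ, a leucine zipper protein that carries part of the anti-inflammatory action of glucocorticoids. Its level was 81.6 CPM (80.02 to 83.25) on the dexamethasone plate and 23.4 CPM (22.4 to 24.4) on the control plate, a log2 ratio of 1.80. A count was found in 87 of 94 dexamethasone cells, or 92.6% (85.3 to 97.0), and in 44 of 94 control cells, or 46.8% (36.4 to 57.4). The median dexamethasone cell held 60.9 CPM and the median control cell held none, but control cells that did have the transcript overlapped the dexamethasone cells.

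Mt2 and Mt1 encode metallothioneins, which bind zinc and copper. Mt2 stood at 63.7 CPM (62.3 to 65.2) on the dexamethasone plate and 6.89 CPM (6.36 to 7.45) on the control plate, a log2 ratio of 3.21, with a median cell at 43.3 CPM in the dexamethasone group and 0.995 CPM in the control group. Its neighbour Mt1 stood at 396 CPM on the dexamethasone plate and 182 CPM on the control plate, a log2 ratio of 1.13, and was found in 93 dexamethasone and 88 control cells. Mt2 thus differed both in how many cells held it and in how much they held, while Mt1 was found in nearly every cell of both groups. In the list of metallothioneins and zinc transporters the zinc and manganese exporter gene Slc30a10 rose as well, with 28.4 CPM in dexamethasone and 12.02 CPM in control cells (log2 ratio 1.24), and the zinc importer gene Slc39a8 fell, with 89.5 CPM in dexamethasone and 229 CPM in control cells (log2 ratio -1.36), so that 3 of the 6 measured genes of that list rose and 1 fell, beside 1.64% and 2.74% of all genes.

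Per1 encodes a repressor of the circadian clock. It stood at 50.9 CPM (49.7 to 52.2) with dexamethasone and 20.9 CPM (19.97 to 21.88) without, a log2 ratio of 1.28. Hif3a, a member of the hypoxia-inducible factor family, stood at 189 CPM in dexamethasone and 85.7 CPM in control cells, a log2 ratio of 1.14. Other targets leaned the same way but stayed within 2-fold. Fkbp5, a co-chaperone that dampens the receptor, had 38.9 CPM in dexamethasone and 21.03 CPM in control cells (log2 ratio 0.89), Klf9, a zinc finger repressor, had 17.01 CPM in dexamethasone and 9.86 CPM in control cells (0.79), and the transglutaminase gene Tgm2 had 82.8 CPM in dexamethasone and 48.1 CPM in control cells (0.78). Zbtb16, the gene of the zinc finger protein PLZF, lay at the threshold with 18.1 CPM in dexamethasone and 9.05 CPM in control cells. Dusp1, a phosphatase of MAP kinases and a target in many tissues, had 63.1 CPM in dexamethasone and 80.8 CPM in control cells, a log2 ratio of -0.36. The receptor's own transcript, Nr3c1, had 70.9 CPM in dexamethasone and 58.7 CPM in control cells (0.27). None of 14 measured members of the list of receptor, chaperones and other nuclear receptors was past 2-fold in either direction. Of all genes 1.64% rose and 2.74% fell, so a count of 0 in a list of this size lies near the background.

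Zfp36l2 encodes an RNA-binding protein that speeds the decay of its target transcripts and is needed for BFU-E to renew. It rose to 40.2 CPM (39.04 to 41.31) on the dexamethasone plate, against 16.2 CPM (15.4 to 17.1) on the control plate, a log2 ratio of 1.31, and was found in 92 dexamethasone and 74 control cells. Its relatives did not go with it: Zfp36l1 had 8.80 CPM in dexamethasone and 16.2 CPM in control cells (log2 ratio -0.88), and Zfp36 had 8.18 CPM in dexamethasone and 14.3 CPM in control cells (-0.81).

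**Figure D2:**
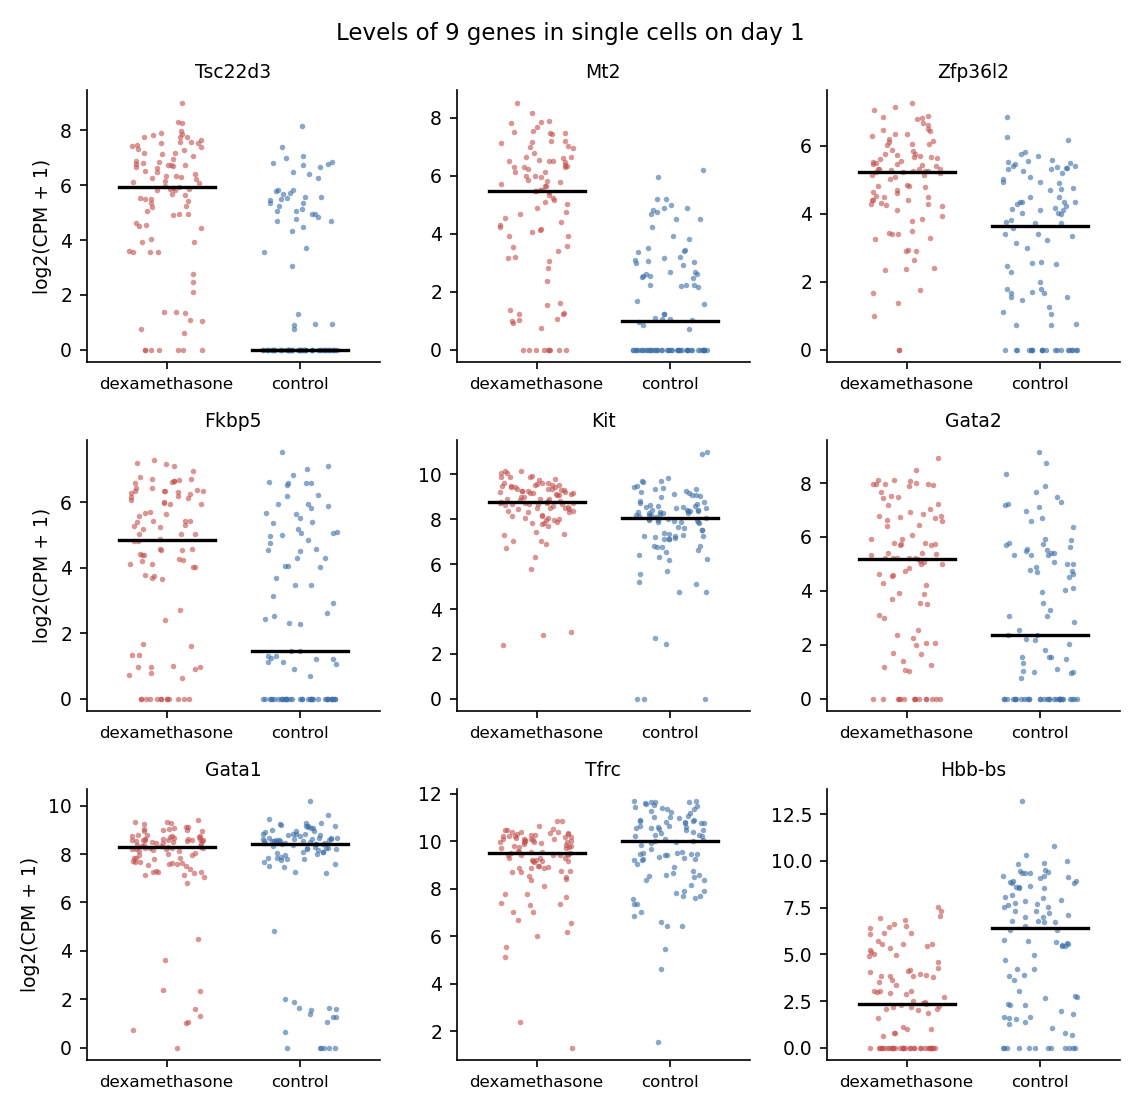
Level of 9 genes in each of 94 dexamethasone cells (red, left) and 94 control cells (blue, right) on day 1, as log2(CPM + 1) on the vertical axis, with a black line at the median cell; points are spread sideways at random within a group. Most dexamethasone cells hold Tsc22d3 and Mt2, many control cells lie at 0, and the few cells with little Gata1 stand apart from the rest in both groups.

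Read as a score per cell, the mean log2(CPM + 1) of 23 receptor targets had a median of 3.22 in dexamethasone cells and 2.32 in control cells. In 86.9% of all pairs of a dexamethasone and a control cell the dexamethasone cell was the higher one. This value is called separation below, and 50% would mean that neither group tended to be higher. Of 94 dexamethasone cells 64 scored above the level that only the top 10% of control cells passed, and 2 scored below the lowest 10%. After thinning the separation was 85.9%. That score holds the 4 genes used to read the header. With the 19 others alone, a score added after the values were seen, the median was 2.87 in dexamethasone and 2.39 in control cells, the separation was 74.7%, 34 dexamethasone cells scored above the level that the top 10% of control cells passed and 4 scored below the lowest 10%.

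Among the other genes with high ratios, chosen by rank with those left out in which 1 cell gave over 25% of the counts, several were close to absent without dexamethasone. The uncharacterised gene 0610040J01Rik had 27.7 CPM (26.8 to 28.6) in dexamethasone and 0.648 CPM (0.492 to 0.837) in control cells, a log2 ratio of 5.38, and was found in 53 dexamethasone and 4 control cells. Rec8, a cohesin subunit best known from meiosis, had 19.2 CPM in dexamethasone and 2.01 CPM in control cells (3.24), in 49 dexamethasone and 7 control cells. Acp5, tartrate-resistant acid phosphatase, had 51.5 CPM in dexamethasone and 6.49 CPM in control cells (2.99), in 69 dexamethasone and 19 control cells. These 3 genes stood out by the number of cells that held them. Anxa2, an annexin that binds membrane phospholipid, had 104 CPM in dexamethasone and 19.3 CPM in control cells (2.42), and its binding partner S100a10 had 31.7 CPM in dexamethasone and 14.5 CPM in control cells (1.13). They were the 2 genes that rose in the list of annexins and S100 proteins, in which 9 of 16 were measured and 2 fell, beside 1.64% and 2.74% of all genes. Fkbp11, a prolyl isomerase of the endoplasmic reticulum, had 54.2 CPM in dexamethasone and 13.1 CPM in control cells (2.04), the 1 member of 24 endoplasmic reticulum chaperones past 2-fold, and Lpl, lipoprotein lipase, had 27.8 CPM in dexamethasone and 7.46 CPM in control cells (1.89).

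A further group of 3 high genes was Gm10800, Gm10801 and Gm21738, predicted genes with near-identical copies whose reads counting could exchange. Gm10800 had 162 CPM in dexamethasone and 4.32 CPM in control cells (log2 ratio 5.23), Gm10801 had 67.7 CPM in dexamethasone and 7.37 CPM in control cells (3.20), and Gm21738 had 21.4 CPM in dexamethasone and 0.703 CPM in control cells (4.89). On days 2 and 3 the ratios were 0.36 and 0.53 for Gm10800, -0.37 and -0.01 for Gm10801, and 0.17 and 0.37 for Gm21738. Their day 1 difference was thus not seen on the later plates. Clca3a1, which also has close paralogs, had 13.98 CPM in dexamethasone and 1.73 CPM in control cells (3.00), with ratios of 3.03 and 5.58 on days 2 and 3.

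Red cell genes leaned downwards. The largest falls among them on the log2 scale, of genes with enough counts, were those of the beta globins Hbb-bs and Hbb-bt, Dmtn, Epb42, Erfe, Tmcc2 and Hemgn, while Gata1, Tal1 and Klf1, transcription factors that set up the lineage, lay within 2-fold. Hbb-bs, an adult beta globin gene, had 21.3 CPM (20.5 to 22.2) on the dexamethasone plate and 259 CPM (255 to 262) on the control plate, a log2 ratio of -3.60. The median dexamethasone cell held 4.17 CPM and the highest 181, while the median control cell held 85.3 CPM and the highest 9485. Hbb-bt had 3.83 CPM in dexamethasone and 26.8 CPM in control cells (-2.80), and the alpha globin gene Hba-a1 had 9.75 CPM in dexamethasone and 41.98 CPM in control cells (-2.10). Hbb-bs and Hbb-bt resemble each other closely, as do Hba-a1 and Hba-a2, so the split within each pair is uncertain. All 3 globins with enough counts fell, beside 2.74% of all genes. Without the highest cell of each gene on each plate their log2 ratios were -3.60 for Hbb-bs, -3.02 for Hbb-bt and -2.06 for Hba-a1.

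Dmtn and Epb42 encode dematin and protein 4.2, which join the red cell membrane to its skeleton. Dmtn had 2.80 CPM (2.51 to 3.12) in dexamethasone and 21.7 CPM (20.8 to 22.7) in control cells, a log2 ratio of -2.95, with counts in 12 dexamethasone and 42 control cells. Epb42 had 3.47 CPM in dexamethasone and 22.5 CPM in control cells (-2.69), with counts in 10 dexamethasone and 30 control cells. The blood group gene Rhd fell too, with 46.8 CPM in dexamethasone and 119.6 CPM in control cells (-1.35). Of 24 measured genes of membrane and skeleton 4 fell, these 3 among them, 1 rose (Cd59a, a complement inhibitor, 13.4 CPM in dexamethasone and 5.08 CPM in control cells, 1.40) and 19 stayed within 2-fold, with a median of -0.39. Of all genes, 2.74% fell and 1.64% rose. Band 3, the anion exchanger encoded by Slc4a1, was too low to be counted among them, with no count on the dexamethasone plate and 1.28 CPM in 4 cells of the control plate.

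Hemgn encodes a nuclear protein of erythroid cells. It had 28.7 CPM (27.7 to 29.6) in dexamethasone and 150 CPM (148 to 153) in control cells, a log2 ratio of -2.39. Counts were found in 59 of 94 dexamethasone cells, or 62.8% (52.2 to 72.5), and in 86 of 94 control cells, or 91.5% (83.9 to 96.3). The median cell had 1.08 CPM with dexamethasone and 87.995 CPM without it. In separation, Hemgn was among the 10 lowest of all 9343 genes, at 21.9%. In the list of terminal remodelling genes Hemgn and the membrane protein gene Tmcc2 fell and Fam46c, a poly(A) polymerase gene, rose (32.4 CPM in dexamethasone and 14.9 CPM in control cells, 1.12), which makes 2 falls and 1 rise among 14 measured genes beside 2.74% and 1.64% of all genes. The E3 ligase gene Trim10, also late, had too few counts for the list, with 0.299 CPM in 2 dexamethasone cells and 7.32 CPM in 16 control cells.

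Heme and iron genes leaned downwards with little past 2-fold. None of 14 heme synthesis genes rose or fell, where 1.64% and 2.74% of all genes did. A ratio below 0 was seen in 13 of 14, against 5096 of all 9343 genes, and the median was -0.32. Alas2, the erythroid enzyme of the first step, was low on both plates with 3.81 CPM in dexamethasone and 7.57 CPM in control cells (-0.99), found in 18 and 17 cells. Abcb6, a porphyrin transporter, had 10.4 CPM in dexamethasone and 20.7 CPM in control cells (-0.99). Tfrc, the transferrin receptor and the CD71 antigen of the sort, had 753 CPM (748 to 758) in dexamethasone and 1337 CPM (1330 to 1345) in control cells, a log2 ratio of -0.83. The iron exporter gene Slc40a1 was the 1 of 14 iron genes that fell, with 27.1 CPM in dexamethasone and 70.4 CPM in control cells (-1.38). The red cell enzymes did not share the lean: Car1, a carbonic anhydrase of early erythroid cells, rose to 190 CPM in dexamethasone, against 89.6 CPM in control cells (1.08), and the median of 14 was 0.10.

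The regulators of the lineage lay mostly within 2-fold. Gata1, the master factor, had 300 CPM in dexamethasone and 323 CPM in control cells (log2 ratio -0.10), and its partner Tal1 had 43.3 CPM in dexamethasone and 40.2 CPM in control cells (0.11). Klf1, an activator of adult globin and of many red cell genes, had 244 CPM in dexamethasone and 346 CPM in control cells (-0.50), and none of the 94 dexamethasone cells passed the level that the top 10% of control cells did. Epor, the erythropoietin receptor, had 171 CPM in dexamethasone and 151 CPM in control cells (0.17). Of 22 erythroid transcription factors Nfia rose (22.9 CPM in dexamethasone, 8.15 CPM in control cells, 1.49), and Sox6 (6.27 and 14.5 CPM in dexamethasone and control cells, -1.21) and Klf3 (20.9 and 44.4 CPM in dexamethasone and control cells, -1.08) fell, 1 and 2 of 22 beside 1.64% and 2.74% of all genes.

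**Figure D3:**
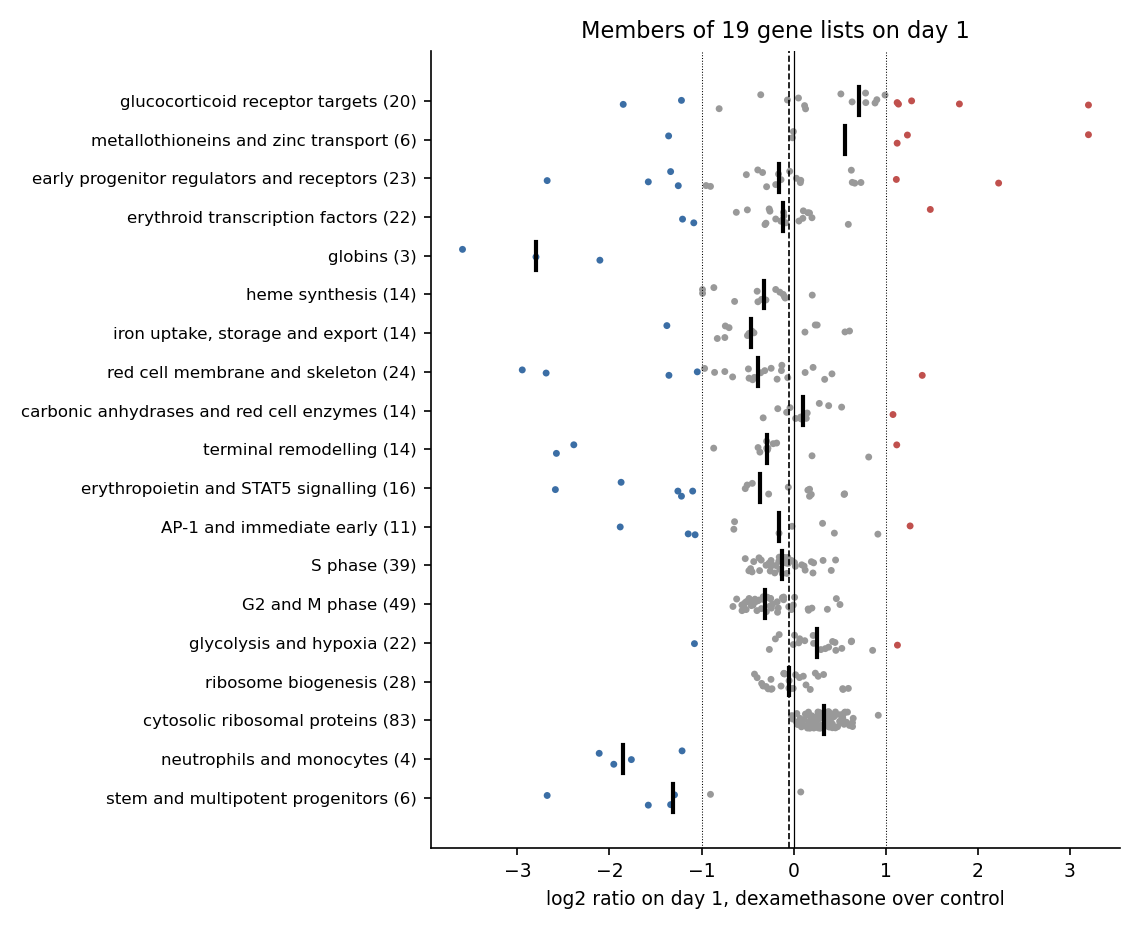
Log2 ratio of dexamethasone over control on day 1 (horizontal axis) of each member with enough counts in 19 gene lists (rows, with the number of members drawn); red points are at least 2-fold higher, blue points at least 2-fold lower, a thick bar is the median of the list, the dashed line the median of all genes and dotted lines mark 2-fold. Receptor targets centre on 0.71 and globins on -2.80, and ribosomal protein genes lie close together around 0.33.

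Taken per cell, the mean log2(CPM + 1) of 71 red cell genes had a median of 5.05 in dexamethasone cells and 5.35 in control cells, a difference of -0.30, and the separation was 40.8%. The shapes differed more than the middles. No dexamethasone cell reached the top 10% of control cells, and the highest score was 6.05 in dexamethasone and 6.86 in control cells. The SD over cells was 0.82 in dexamethasone and 1.19 in control cells, and at the low end 5 dexamethasone cells lay below the level under which the lowest 10% of control cells fell. Scores of control cells thus had the wider spread. The score ran against the score of early progenitor genes, with a Spearman rho over 94 cells each of -0.71 in dexamethasone and -0.84 in control cells, and weakly with that of receptor targets, 0.26 in dexamethasone and 0.19 in control cells. Both scores of a cell share its library and depth, and the red cell score had a rho of 0.34 in dexamethasone and 0.33 in control cells with the log10 of a cell's counts.

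**Figure D4:**
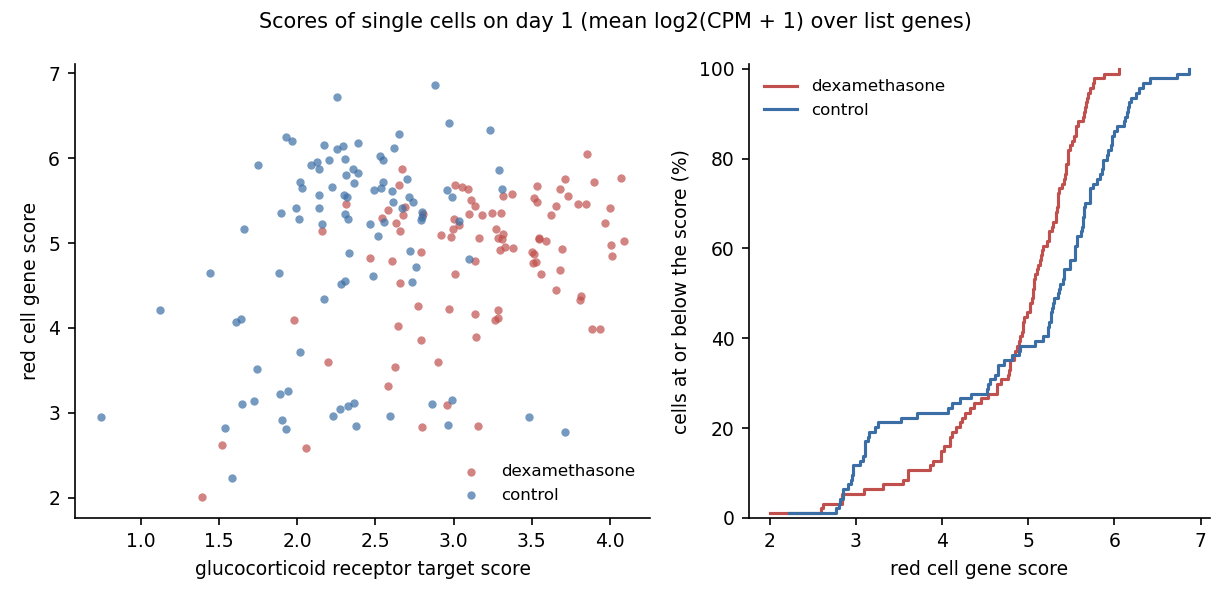
Left, red cell gene score (vertical) against glucocorticoid receptor target score (horizontal) of each cell on day 1, both as mean log2(CPM + 1); right, percent of cells (vertical) at or below each red cell score (horizontal). Dexamethasone cells (red) lie to the right of control cells (blue) on the left panel, and on the right panel the dexamethasone line ends at 6.05 and the control line at 6.86; the step of the control line near 3 holds its 18 cells under 50 CPM of Gata1, none of which scored above 3.25.

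The low end of the red cell score was mostly made of cells with little Gata1. Such cells, under 50 CPM, numbered 10 of 94 with dexamethasone, or 10.6% (5.22 to 18.7), and 18 of 94 without, or 19.1% (11.8 to 28.6), intervals that overlap. The limit of 50 CPM was chosen after the values were seen and lies in a gap: low cells had at most 21.3 CPM of Gata1 in the dexamethasone group and 27.6 CPM in the control group, and all others had at least 112 and 147 CPM in these groups. Without these cells, 84 dexamethasone and 76 control cells were left, 220 of 9129 genes were at least 2-fold higher and 218 lower, and 113 of the 153 and 145 of the 256 remained. The ratios of the named red cell genes and receptor targets were then as large or close to it: -3.78 for Hbb-bs, -2.55 for Hemgn, -3.12 for Dmtn, -2.87 for Epb42, 1.88 for Tsc22d3 and 3.03 for Mt2. In cells low in Gata1 the median receptor target score was 2.60 with dexamethasone and 2.08 without, and in the other cells it was 3.29 with dexamethasone and 2.33 without. That score holds the genes used to read the header, Tsc22d3 and Mt2 among them, so these values are not independent evidence here.

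Kit, the receptor of stem cell factor and the CD117 antigen of the sort, had 489 CPM (485 to 493) in dexamethasone and 314 CPM (311 to 318) in control cells, a log2 ratio of 0.64 that grew to 1.05 without the cells low in Gata1. Gata2, a factor of earlier progenitors that Gata1 displaces during maturation, rose to 71.9 CPM in dexamethasone, against 33.1 CPM in control cells (1.12). Il1rl1, the receptor of interleukin 33, rose to 28.8 CPM in dexamethasone, against 6.12 CPM in control cells (2.23), found in 52 dexamethasone and 15 control cells. These were the 2 of 23 early progenitor genes that rose, and 4 fell: Hlf, Flt3, Cd34 and Mycn, all better known from stem and multipotent cells. Over all genes 1.64% rose and 2.74% fell. The 4 falls varied with the cells included. Without cells low in Gata1 the log2 ratios were 1.51 for Hlf, 2.64 for Flt3, 0.49 for Cd34 and -0.48 for Mycn, against -2.68, -1.58, -1.34 and -1.25 with all cells, and the median of the list was 0.49, against -0.16. Without cells that held at least 2 neutrophil and monocyte markers at 2 CPM or more the ratios were -9.03 for Hlf, -2.87 for Flt3, 0.19 for Cd34 and 0.79 for Mycn. Among all kept cells Hlf had counts in only 5 dexamethasone and 15 control cells, so its ratios rest on few cells. Without the highest cell of each gene on each plate they were -2.20 for Hlf, -1.69 for Flt3, -1.51 for Cd34 and -0.99 for Mycn. Myb, needed for progenitors to proliferate, had 75.8 CPM in dexamethasone and 83.2 CPM in control cells (-0.14), and Myc had 438 CPM in dexamethasone and 538 CPM in control cells (-0.30).

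Genes of erythropoietin and STAT5 signalling included some of the larger falls while the receptor gene Epor and Stat5a lay within 2-fold. Cish, a feedback inhibitor of that pathway, had 23.8 CPM (22.97 to 24.72) in dexamethasone and 56.97 CPM (55.4 to 58.6) in control cells, a log2 ratio of -1.26, and was found in 52 dexamethasone and 70 control cells. Erfe, the hormone erythroferrone that lowers hepcidin in the liver, had 3.26 CPM in dexamethasone and 19.7 CPM in control cells (-2.59). The survival kinase gene Pim1 (13.9 and 29.6 CPM in dexamethasone and control cells, -1.10) and the adaptor genes Gab1 (10.4 and 38.1 CPM in dexamethasone and control cells, -1.87) and Irs2 (7.18 and 16.7 CPM in dexamethasone and control cells, -1.22) fell as well. Together these were 5 of 16, against 2.74% of all genes, and none rose. Stat5a had 116 CPM in dexamethasone and 103 CPM in control cells (0.17), Socs2 had 19.1 CPM in dexamethasone and 12.995 CPM in control cells (0.56), and the median of the list was -0.36.

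The AP-1 component Jun fell to 24.0 CPM (23.1 to 24.9) in dexamethasone, against 88.4 CPM (86.5 to 90.4) in control cells, a log2 ratio of -1.88. The ligand-bound glucocorticoid receptor is known to interfere with AP-1. Fos had 96.2 CPM in dexamethasone and 202 CPM in control cells (-1.07), though its median cell was at 3.01 CPM with dexamethasone and 4.43 CPM without. Btg2, an antiproliferative immediate early gene, had 13.9 CPM in dexamethasone and 30.8 CPM in control cells (-1.14). Fosl1, another AP-1 member, went the other way, with 12.6 CPM in dexamethasone and 5.24 CPM in control cells (1.27). Of 11 measured genes in that list 3 fell and 1 rose, against 2.74% and 1.64% of all genes. Feedback regulators of MAP kinase leaned upwards, 8 of 9 with a ratio above 0, against 4247 of all 9343 genes. Their median was 0.35, and none was past 2-fold.

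S phase and G2 and M phase genes lay within 2-fold and leaned downwards. None of 39 S phase genes and none of 49 G2 and M phase genes rose or fell, with medians of -0.12 and -0.31. Over all genes 1.64% rose and 2.74% fell, so a count of 0 in lists of this size lies near the background. By sign, 28 of 39 S phase and 42 of 49 G2 and M phase genes lay below 0, against 5096 of all 9343 genes. Cdkn1c, an inhibitor of cyclin-dependent kinases that glucocorticoids raise in other cells, was near the floor with 0.249 CPM in dexamethasone and 0.480 CPM in control cells, found in 2 cells of each group. In the list of G1 cyclins, kinases and inhibitors Ccnd1 was the 1 of 18 that fell, with 7.81 CPM in dexamethasone and 24.2 CPM in control cells, and its log2 ratio of -1.63 was 0.13 without cells low in Gata1 and -0.01 without cells with neutrophil markers.

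The genes that best told single dexamethasone cells from single control cells were not those with the largest ratios. Eef1b2, a translation elongation factor, had 1321 CPM (1314 to 1327) in dexamethasone and 743 CPM (738 to 749) in control cells, a log2 ratio of 0.83 and a separation of 95.7%. Tpt1, a growth-related protein long known as TCTP, had 212 CPM in dexamethasone and 112 CPM in control cells, with a separation of 95.5%. The ribosomal protein genes Rpl7, Rpsa, Rps3a1, Rps3 and Rpl5, with Rack1, which sits on the small subunit, followed at 91.8% to 95.4%. Of 83 measured cytosolic ribosomal protein genes 80 had a ratio above 0, against 4247 of all 9343 genes. Their median was 0.33 and none reached 2-fold. Of all genes 1.64% rose and 2.74% fell. Their summed level was 34230 CPM on the dexamethasone plate and 27674 CPM on the control plate.

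This difference moved with gene length. Over 9340 genes the log2 ratio of day 1 fell with the exonic length of the gene, with a Spearman rho of -0.27, against -0.04 on day 2 and -0.04 on day 3, and genes share libraries and so are not independent. The 2336 shortest genes, up to 2872 bases, had a median log2 ratio of 0.15 and the 2335 longest, from 6987 bases, a median of -0.16. Ribosomal protein genes, with a median length of 1770 bases, stood at 0.33, and the other 2270 genes among the shortest stood at 0.14. The ratio was above 0 in 66.3% of the 2336 shortest genes and in 33.4% of the 2335 longest. Length was looked at after the values were seen. Its part in the ribosomal protein difference was not tested, and the plates differ along with the treatment.

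At the other end of separation stood mt-Co1, a subunit of cytochrome oxidase encoded in the mitochondrion, with 5335 CPM (5322 to 5348) in dexamethasone and 10876 CPM in control cells, a log2 ratio of -1.03. In 4.19% of cell pairs the dexamethasone cell was the higher one, so almost every dexamethasone cell lay below almost every control cell. The mitochondrial ribosomal RNA mt-Rnr2 went the other way, with 15646 CPM in dexamethasone and 9150 CPM in control cells (0.77, separation 92.8%), and mt-Nd1 hardly differed, with 8919 CPM in dexamethasone and 8740 CPM in control cells (0.03). Nuclear copies of mitochondrial genes can take or void such reads: mt-Co3 was listed at 0.0914 CPM in dexamethasone and 0.0670 CPM in control cells and mt-Co2 at 0.0582 CPM in dexamethasone and 0.0781 CPM in control cells, so these values depend on how the reads were counted. Tubb5, Hnrnpm, Adam10, Canx, Sf3b1 and Hsp90aa1 also separated the cells downwards, at 16.03% to 22.5%, with log2 ratios from -0.40 to -0.86.

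Glycolysis and hypoxia genes leaned upwards, with a separation of 76.4% for their score per cell. Of 22 measured genes 1 rose and 1 fell, beside the 1.64% and 2.74% of all genes, and the median was 0.26. Egln3, an oxygen-sensing prolyl hydroxylase, had 51.1 CPM in dexamethasone and 23.3 CPM in control cells (1.13), and was found in 81 of 94 dexamethasone cells, or 86.2% (77.5 to 92.4), and in 23 of 94 control cells, or 24.5% (16.2 to 34.4). Its log2 ratio was 3.79 without cells low in Gata1. Ldha, lactate dehydrogenase A, had 3181 CPM in dexamethasone and 2370 CPM in control cells (0.42, separation 82.3%). Pfkm, the muscle type of phosphofructokinase, fell to 72.8 CPM in dexamethasone, against 153 CPM in control cells (-1.08).

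Markers of other blood cells were present although the depletion had removed Ly-6G, CD11b, CD16/32 and CD41 positive cells before culture. All 4 neutrophil and monocyte markers that were measured, of 16 listed, fell, beside 2.74% of all genes. Their summed level was 325 CPM on the dexamethasone plate and 1353 CPM on the control plate. Mpo, myeloperoxidase, made up most of it with 276 CPM in dexamethasone and 1192 CPM in control cells (-2.11), and S100a9, Ngp, Fcnb and Lcn2 had no count on either plate. At least 2 of the 16 listed markers, each at 2 CPM or more, were found in 17 of 94 dexamethasone cells, or 18.1% (10.9 to 27.4). The same held for 28 of 94 control cells, or 29.8% (20.8 to 40.1). Of the cells low in Gata1, 8 of 10 with dexamethasone and 15 of 18 without were among them. Without all cells that held 2 such markers, 77 dexamethasone and 66 control cells were left, and Hbb-bs stood at -3.90, Hemgn at -2.82, Mt2 at 2.93 and Tsc22d3 at 2.17. The median log2 ratio of the neutrophil and monocyte list was then 0.81, against -1.86 with all cells. Without the cells low in Gata1 it was -4.66, so it depended on a minority of cells.

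Mast cell and basophil markers, at least 2 of them, were found in 65 dexamethasone cells (69.1%) and 42 control cells (44.7%), and at least 5 megakaryocyte markers in 63 dexamethasone cells (67.02%) and 46 control cells (48.9%), counts that grow with the depth of a cell. Any count was enough for a marker here, and Srgn, on the mast cell list, had a count in 94 dexamethasone and 88 control cells. Of 14 listed mast cell genes 4 were measured, 1 with a ratio above 0 and 3 below. Their median log2 ratio was -0.71, and none was past 2-fold. By plate sum the mast cell list was close, at 204 CPM in dexamethasone and 192 CPM in control cells. The megakaryocyte list summed to 602 CPM in dexamethasone and 688 CPM in control cells. In the median cell the mast cell list summed to 152 CPM with dexamethasone and 70.4 CPM without. For the megakaryocyte list the median cell held 163 CPM with dexamethasone and 174 CPM without. After thinning, the separation was 65.6% for the mast cell score and 54.2% for the megakaryocyte score. The mast cell protease gene Cpa3 had 15.1 CPM in dexamethasone and 26.2 CPM in control cells and the platelet factor gene Pf4 had 30.5 CPM in dexamethasone and 56.1 CPM in control cells, and 1 cell gave 29.5% and 49.1% of the control counts of these genes. Hepatocyte markers, with Alb at 0.0748 CPM in dexamethasone cells and without a count in control cells, summed to 6.24 CPM in dexamethasone and 5.15 CPM in control cells. Macrophage and lymphoid lists summed to 12.9 and 19.2 CPM in dexamethasone cells and to 15.8 and 44.8 CPM in control cells. Erythroid markers of the sort were present in nearly every cell of both groups, Kit in 94 dexamethasone and 91 control cells and Tfrc in all 94 of each.

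The lowest ratios of all, again with genes led by 1 cell left out, mixed red cell genes with others. Tulp2, of the tubby-like family, had 0.598 CPM in dexamethasone and 12.4 CPM in control cells (log2 ratio -4.33), and Prss50, a serine protease best known from testis, had 2.46 CPM in dexamethasone and 18.4 CPM in control cells (-2.89). Tmem173, the innate immune adaptor STING, had 3.47 CPM in dexamethasone and 36.04 CPM in control cells (-3.37), found in 9 dexamethasone and 28 control cells. For these genes the plates of days 2 and 3 gave different pictures: Prss50 was at -6.17 and -5.65, but Tmem173 was at 0.62 and -0.03.

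The later plates share no cells with those of day 1 and so can be set beside it. Of the 153 genes that rose on day 1, 53 (34.6%) were at least 2-fold higher on both later days, against 298 (3.19%) of all 9343 genes. Of the 256 that fell, 51 (19.9%) were at least 2-fold lower on both, against 243 (2.60%) of all. Mt2 widened to 5.52 and 6.28 on days 2 and 3, Mt1 to 2.63 and 2.72, Kit to 2.41 and 2.49 and Nfia to 3.30 and 3.79, while Tsc22d3 stood at 1.56 and 0.99. Klf1 and Tfrc, within 2-fold on day 1, stood at -1.41 and -1.45 on day 2. Among the rises 14 of 153 (9.15%) were at least 2-fold lower on a later day, and among the falls 72 of 256 (28.1%) were at least 2-fold higher on one, a difference that was not tested. Of all 9343 genes, 1025 (10.97%) were at least 2-fold lower and 1266 (13.55%) at least 2-fold higher on a later day. Mpo, at -2.11 on day 1, was at 7.46 on day 2 and -1.26 on day 3, so its direction changed from plate to plate.

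**Figure D5:**
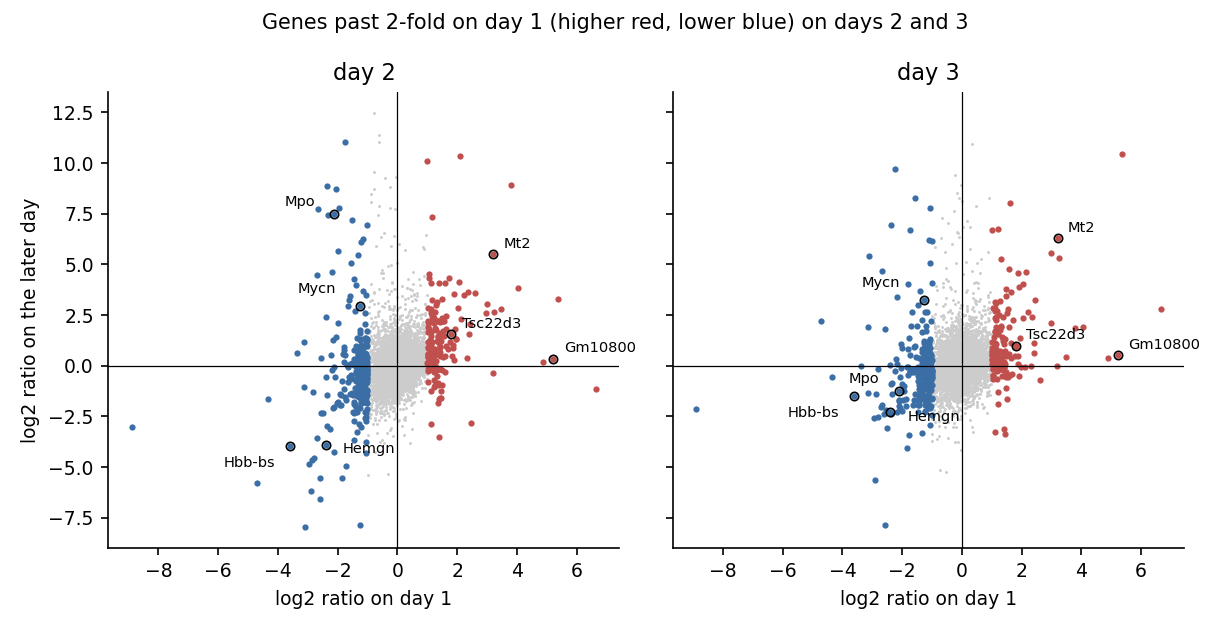
Log2 ratio of dexamethasone over control on day 2 (left) and day 3 (right) on the vertical axis against the ratio on day 1 on the horizontal axis, each point 1 of the genes with enough counts on day 1; red points were at least 2-fold higher on day 1, blue points at least 2-fold lower, and labelled genes are ringed. Mt2 lies high on both later days, Hbb-bs and Hemgn lie low on both, Gm10800 lies near 0 on both, and Mpo is at 7.46 on day 2.

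Promoters of the called genes were searched for 2 short motifs on both strands, from 250 bases before to 50 after each annotated start in RefSeq (GRCm38.p6). The letters TGTTCT, one arm of the glucocorticoid response element, was found in 22 of 113 matched higher genes (19.5%), 34 of 209 lower genes (16.3%) and 1025 of 7251 of all genes with a promoter in the table (14.1%). The GATA motif AGATAA was found in 14 of 113 higher (12.4%), 25 of 209 lower (11.96%) and 531 of all 7251 (7.32%). A full palindrome, AGAACA and TGTTCT with 3 bases between them, was found in none of the 3 sets, and the windows of Mt2, Mt1, Per1 and Fkbp5 held neither motif. A match of so few letters is a description and not a binding site. Shown are a start of Tsc22d3 and the promoters of Hbb-bs and Hemgn, the genes on which the results above most often turn, with every match in capitals. The Tsc22d3 window is chrX:140600473-140600772 on the minus strand, 1 of several annotated starts, and its TGTTCT begins 185 bases before that start. The Tsc22d3 windows chrX:140542619-140542918 and chrX:140548522-140548821 held neither motif. The Hbb-bs window is chr7:103827879-103828178 on the minus strand, with TGTTCT beginning 222 and the GATA motif beginning 210 bases before the start. The Hemgn window is chr4:46404134-46404433 on the minus strand, with a GATA motif 28 bases after the start.
Tsc22d3: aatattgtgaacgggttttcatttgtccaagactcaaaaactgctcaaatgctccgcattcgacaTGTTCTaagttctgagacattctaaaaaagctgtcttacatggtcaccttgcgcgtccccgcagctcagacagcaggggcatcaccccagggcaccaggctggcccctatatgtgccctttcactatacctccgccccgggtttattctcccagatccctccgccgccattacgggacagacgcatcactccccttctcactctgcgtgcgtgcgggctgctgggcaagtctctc
Hbb-bs: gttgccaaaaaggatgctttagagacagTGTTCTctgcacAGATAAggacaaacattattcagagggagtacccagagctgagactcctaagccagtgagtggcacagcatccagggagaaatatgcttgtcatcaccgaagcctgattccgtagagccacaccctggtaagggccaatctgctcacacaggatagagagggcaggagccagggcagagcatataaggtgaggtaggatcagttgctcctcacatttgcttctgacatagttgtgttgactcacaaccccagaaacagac
Hemgn: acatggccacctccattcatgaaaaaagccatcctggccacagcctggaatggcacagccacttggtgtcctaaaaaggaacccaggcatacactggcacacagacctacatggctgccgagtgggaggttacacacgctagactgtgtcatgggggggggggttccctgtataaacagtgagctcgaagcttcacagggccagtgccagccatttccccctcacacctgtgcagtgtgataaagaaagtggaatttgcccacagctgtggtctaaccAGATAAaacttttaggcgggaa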

How the data were processed

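Polyadenylated RNA of single cells was sequenced on 6 plates of 96 wells, each with its own day and treatment. In the deposited table a value is the number of reads counted for a gene in a well, the raw counts. The submitters' processing notes name STAR 2.4, featureCounts and the build GRCm38. Strandedness, multi-mapping and the release of the annotation are details not given in the sources used here, and reads of near-identical copies, overlapping genes and antisense partners cannot be told apart. No molecular identifiers are stated. Nothing in the labels says that plates came from separate animals or cultures.

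An empty cell after the gene column of the header was dropped, so that names and value columns were equal in number. Had the names been read 1 column off, wells would stand under other plates and the groups compared here would change. Of the value columns 575 matched a labelled well, and 1 that matched none was not used. The identifiers of 49326 of 49466 genes were found in GENCODE vM21, also on GRCm38, for lengths and coordinates. A well was kept with at least 50000 counts, at least 1500 genes and at most 20% mitochondrial counts, and 2 wells of each day 1 plate had fewer counts. Doublets were not called, because a sorter filled the wells, and wells with more than 1 cell were not looked for. Cells of a plate are not replicates: counts were summed per plate, scaled by TMM (edgeR 4.0.16) over the 6 plates on 20040 genes and given as CPM, computed from the deposited counts. A log2 ratio carries a prior count of 2. The 2 day 1 plates held 115750771 counts with dexamethasone and 88158683 without. Scores per cell are means of log2(CPM + 1). Of the matched wells, 92 pairs shared an index position between the day 1 plates, and cells of such pairs were no more alike than other pairs (median Spearman rho over genes 0.617 and 0.613).

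The comparison, its 54 gene lists and the choice of named genes were made with earlier results of these data known. Named were the 15 genes with the highest and the 15 with the lowest ratio in which no cell gave over 25% of the counts of the higher plate, the 10 with the highest and lowest separation, up to 4 of each list and a set of fixed genes. List members without a single row of their symbol (Ahsp, Dancr and Itgam) were not analysed here, and a few genes that the rule names are not reported here. The scripts were tested on simulated counts. Alternatives changed the scaling (DESeq2 1.42.0 size factors or plain library size), the filter on low counts, the prior count, the weighting and filtering of cells, the depth and the fold.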

Additional observations from a re-analysis of the deposited data

Results flagged for a closer look

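With 1 plate per day and treatment, a difference between days was not tested for any gene. A total of 13 named genes are given here because their log2 ratio of dexamethasone over control was past 2-fold in one direction on day 1 and past 2-fold in the opposite direction on a later day. Genes of granulocytes and their precursors were among those with the widest turns: Mpo was at -2.11 on day 1 and 7.46 on day 2, Csf3r, the receptor of the granulocyte growth factor, at -1.95 and 7.78, and Prtn3, a serine protease of granules, at -1.21 and 6.12. Cells with at least 2 neutrophil and monocyte markers at 2 CPM or more made up 17 of 94 dexamethasone and 28 of 94 control cells on day 1. The part of single cells in the later values was not tested.

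Among genes of early progenitors, Hlf was at -2.68 on day 1, 4.46 on day 2 and 4.68 on day 3, Mycn at -1.25, 2.96 and 3.25 on these days, and Flt3 at -1.58 on day 1 and 8.27 on day 3. In Hlf 1 cell gave 64.9% of the counts of the control plate of day 1. Adhesion genes turned as well, with Icam1 at -1.61 on day 1 and 3.27 on day 2, Itgal at -1.04 and 1.20, and Pecam1 at -1.03 and 1.27. The immune signalling gene Card9 was at -2.40 on day 1 and 2.43 on day 2, and Nlrc3 at -2.57 on day 1 and 1.79 on day 3. The transcription factor genes Mxd4, at -1.99 on day 1 and 2.10 on day 2, and Arid3a, at -1.26 and 1.27, complete the set.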

How the results depend on the processing

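Counts of 153 higher and 256 lower genes were within 1.5 times under 9 and 10 of 14 alternatives. They were 4108 and 3486 with no filter on low counts, 48 and 71 with a mean of at least 20 CPM, 586 and 830 at 1.5-fold, 378 and 406 without cells with 5 megakaryocyte markers (31 dexamethasone and 48 control cells left), and 304 higher without cells with neutrophil markers. By same sign alone, 102 higher (66.7%) and 119 lower genes (46.5%) kept their direction on both later days, as did 33.6% and 33.9% of all genes. The difference in median genes per cell was 474.5 after thinning. Of the list medians recomputed, 662 moved by less than 1.5-fold, 32 of them across 0, 21 moved by more, 10 of them across 0, and 2 that were past 2-fold changed sign. With no filter, neutrophils were at -3.31 and lymphoid cells at -1.73; at 20 CPM the ZFP36 family was at 0.68; without the highest cell lymphoid cells were at -3.21. Without cells with neutrophil markers, early progenitors were at 0.47, mast cells at 1.80, megakaryocytes at 1.13, neutrophils at 0.81, lymphoid cells at -2.99, endothelial cells at 1.12, stem cells at -0.28, and Prtn3 was at 0.18, Mycn at 0.79, Cd34 at 0.19 and Mpo at 0.81. Without cells with 5 megakaryocyte markers, the ZFP36 family was at -0.10, Schlafen genes at -1.19, mast cells at 1.01, neutrophils at -1.12, macrophages at 1.21, lymphoid cells at 0.54, endothelial cells at -0.89 and Itgal at 0.22. Without cells under 50 CPM of Gata1, an alternative chosen after seeing the data, early progenitors were at 0.49, NF-kB genes at 0.51, neutrophils at -4.66, endothelial cells at 0.82, stem cells at 0.49, Cd34 at 0.49, Flt3 at 2.64, Ccnd1 at 0.13, Mxd4 at 0.38, Nlrc3 at 0.26, Hlf at 1.51 and Sh2d3c at 0.67. Beyond fewer genes or cells, the causes were not tested. The red cell score differed in the same direction under all 6 alternatives tried for it. Depth limits genes under a few CPM, and intervals hold counting error alone, since plate and treatment cannot be told apart. No paired analysis was possible because each treatment had 1 plate on day 1.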

Other observations

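Of 13 measured apoptosis regulators of the BCL2 family 1 rose and 1 fell, beside 1.64% and 2.74% of all genes. Bcl2, which blocks apoptosis, had 17.4 CPM in dexamethasone and 8.48 CPM in control cells (log2 ratio 1.03), with 43.1% of its dexamethasone counts in 1 cell, and Bcl2l11, which encodes the killer BIM, had 7.39 CPM in dexamethasone and 15.5 CPM in control cells (-1.07). Lipid genes moved both ways: besides Lpl, which rose, the carnitine transferase gene Cpt1a (49.96 CPM in dexamethasone and 109 CPM in control cells, -1.13) and the lipid droplet coat gene Plin2 (43.2 CPM in dexamethasone and 94.4 CPM in control cells, -1.13) fell, 1 rise and 2 falls among 14 measured genes. Of 17 measured integrins and adhesion genes 3 fell, Pecam1, Itgal and Cd82, and none rose. The shares of all genes, 1.64% higher and 2.74% lower, apply to these lists too.

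In several lists no measured gene was past 2-fold on day 1, where 1.64% and 2.74% of all genes were higher and lower. These were 29 genes of cholesterol and fatty acid synthesis (median -0.17), 28 of ribosome biogenesis (-0.05), 17 p53 targets (-0.19), 17 of the amino acid response (-0.19), 17 TGF-beta receptors and SMADs (0.10), 13 of DNA methylation and GADD45 (-0.29), 12 of heat shock (-0.04), 10 of MHC class I (-0.04) and 9 of the interferon response (-0.42). Among genes of long non-coding RNA and snoRNA hosts, 10 of 13 had a ratio above 0, against 4247 of all 9343 genes. Their median was 0.17.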
